A study of Triticum aestivum with 122 samples.

Results

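Brassinosteroid seed treatment was compared with its control in wheat heads that had never been heated, by RNA sequencing of 27 of the 122 libraries in the study. Values of 121 libraries were used, and replicate 1 of the EBR rachises at 22 °C and 8 h was not analysed here. These 27 were taken at 0 h: 8 floret and 8 rachis libraries from seed germinated in 2,4-epibrassinolide (EBR), and 5 floret and 6 rachis libraries from seed germinated in dimethyl sulfoxide (DMSO), the solvent control. All plants were Triticum aestivum cultivar Vida, a bread wheat. Seeds of both kinds spent 48 h in the dark in petri plates with 1 µM EBR or 1 µM DMSO, and the plants then grew at 22 °C under a 16 h day until booting. At the tetrad stage, when the pollen mother cells have finished meiosis, some pots of each seed treatment went to a constant 29 °C. Heads still inside the leaf sheath were taken just before that move (0 h) and again after 8, 16 and 24 h, and were divided into florets and rachis, the stalk on which the spikelets sit.

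At 0 h the pots named 29 °C had not been moved, so both pot sets of a seed treatment were pooled, and the 2 tissues were analysed separately. The 4 libraries of replicate 1 of both DMSO pot sets were left out, because they lay on the side of the other tissue. On a score of floret-rich minus rachis-rich genes, 100 of each chosen in libraries not taken at 0 h, the left-out florets stood at -1.99 and -1.90 and the left-out rachises at 0.62 and 2.13. The florets kept ranged from 0.21 to 2.80 and the rachises kept from -3.86 to -0.41. Each of these kept libraries lay on the side of its labelled tissue, and 1 DMSO rachis (kept pots, replicate 2) lay nearest to the florets, at -0.41, with the next rachis at -1.23. The kept libraries held 15.8 M to 21.8 M reads in EBR florets, 14.5 M to 17.9 M in DMSO florets, 12.6 M to 14.9 M in EBR rachises and 11.7 M to 15.6 M in DMSO rachises. The labels call the replicates biological and do not say from which pot each head came.

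Brassinosteroids are plant steroid hormones that are perceived at the cell surface by the receptor kinase BRI1 with its partner BAK1. The signal inactivates the kinase BIN2, which lets transcription factors of the BZR1 and BES1 family act on genes for cell elongation, division and the hormone's own synthesis. In flowers the hormone is known for its part in stamen and pollen development, and in grasses for plant height and leaf angle. None of the gene IDs in the table could be matched to a name here, so these genes could not be picked out, and genes are given by ID, whose first characters name the chromosome (1A to 5D). In whole pieces of tissue, fewer cells of a type and less RNA per cell cannot be told apart.

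In the floret, 60 of 38183 genes tested differed between EBR and DMSO seed at 0 h, which is 0.157% (limma, Benjamini-Hochberg adjusted p under 0.05). Of these, 55 were higher (0.144%) and 5 lower (0.0131%) with EBR. The 60 genes fell into 2 kinds. A block of 36 genes, all higher with EBR, belonged to a set of 41 that rose and fell together in florets at other times. Their fold changes were large, with a median of 3.16 on the log2 scale and a range from 2.41 to 3.89. The other 24 comprised 19 higher and 5 lower genes with smaller differences, of median 1.10 (0.41 to 2.61) and -0.45 (-0.87 to -0.28). Across all genes tested the median was 0.00499 on the log2 scale, and 51.5% were on the positive side.

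In the rachis of the same heads, 0 of 38792 genes were called by limma, which is 0%, with a smallest adjusted p of 1.3e-01. At an unadjusted p under 0.05 limma gave 1329 rachis genes (3.43%) against 2681 floret genes (7.02%), and edgeR on whole reads called 0 rachis genes with 1358 at an unadjusted p under 0.05. The precision of the 2 tissues was close. The 95% interval of the EBR difference lay within 2-fold in either direction for 77.1% of floret genes and 75.8% of rachis genes. Its median half-width was 0.34 for florets and 0.39 for rachises, on the log2 scale.

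**Figure D1:**
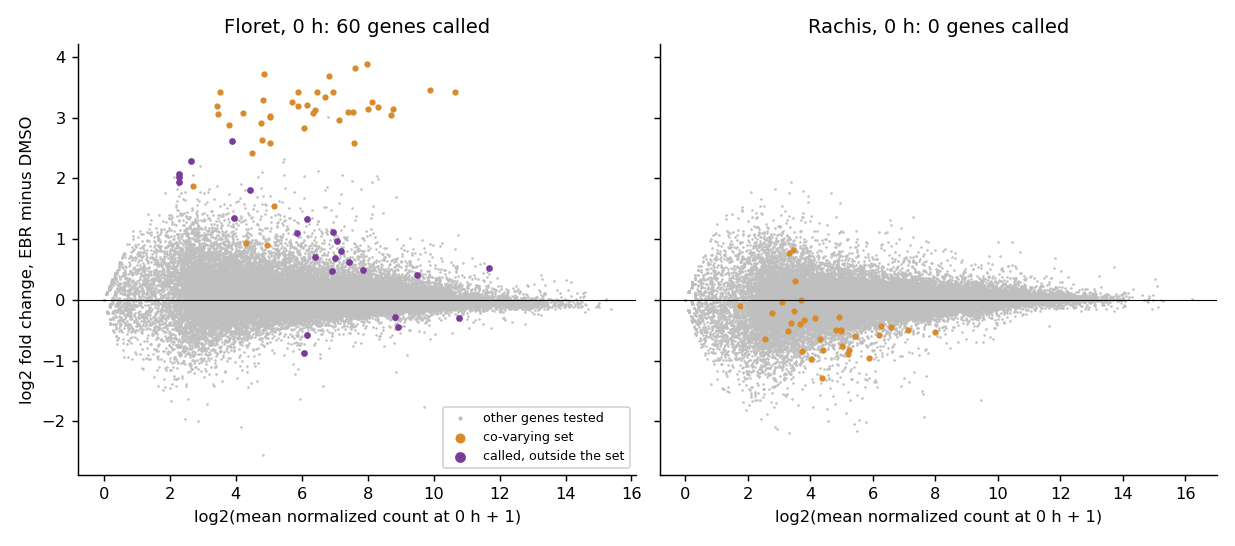
Log2 fold change of EBR against DMSO seed at 0 h (vertical axis) against the mean normalized count at 0 h on a log2 scale (horizontal axis), 1 point per gene tested, floret on the left and rachis on the right. The co-varying set (orange) stands apart at the top of the floret panel, most of it between 2.41 and 3.89, and lies mostly below 0 in the rachis panel, where no gene was called. A DMSO rachis of kept pots with a set level of 6.66 enters the rachis panel.

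In the floret 46 of the 60 called genes differed by 2-fold or more, against 664 of all genes tested (1.74%). In 39 of the 60 the EBR and DMSO libraries did not overlap, against 168 of all genes (0.44%). The rachis held 457 genes with a 2-fold difference (1.18%) and 28 without overlap (0.0722%). Since the 60 were chosen by this same contrast, these counts describe them and test nothing.

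By chromosome, 1A held 17 of the 60 called genes, 28.3% of them, and 5.82% of the genes tested. Chromosome 1B held 9, with 6.14% of the genes tested, and 5D held 8, with 5.98%. Chromosomes 1D and 5B held 0 of their 2350 and 2843 genes tested. Of the 17 on 1A, 16 belonged to the co-varying set, as did 7 of the 9 on 1B and 4 of the 8 on 5D. Called genes of the set lay near each other: 33 of the 36 had another called gene within 5 places on the chromosome. Places were counted among the floret genes tested, in the order of their IDs. Of the 24 called genes outside the set, 0 had such a neighbour. The share with such a neighbour was not taken over all genes tested.

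The co-varying set was defined without any 0 h library, as the genes with a Pearson correlation above 0.8 with TraesCS1A03G0002800.1 over the 46 floret libraries of later times. That gene had itself been picked from earlier results of these data. At 0 h its normalized count in EBR florets was 109 at the lowest, 298 at the median and 473 at the highest. In DMSO florets it was 6.36, 13.8, 21.0, 27.8 and 44.9. Every EBR floret was above every DMSO floret, and each pot set gave nearly the same fold, 3.75 (SE 0.627) in kept pots and 3.74 (SE 0.711) in pots to be moved. Pooled, the log2 fold change was 3.81 (SE 0.468, adjusted p = 2.3e-06 by limma).

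In the rachis TraesCS1A03G0002800.1 was low with both seed treatments. EBR rachises ranged from 7.58 over a median of 13.9 to 21.5 normalized counts, and DMSO rachises from 6.81 over a median of 13.8 to 254. The groups overlapped, and 1 DMSO rachis (kept pots, replicate 2) held the 254 while the next highest held 15.6. The log2 fold change was -0.49 (SE 0.508, adjusted p = 1.0e+00 by limma), and without that library it was 0.22.

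Over the whole set of 41 genes, the median level was 99.0 normalized counts in EBR florets and 13.3 in DMSO florets. The mean log2 level of the set ran from 5.02 over a median of 6.58 to 7.40 in the 8 EBR florets. In the 5 DMSO florets it ran from 2.88 over a median of 3.32 to 4.72. No DMSO floret reached the lowest EBR floret, an EBR floret of kept pots (replicate 3) at 5.02. The 5 set members that were not called were higher in EBR florets as well, so that all 41 had a positive fold change.

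The seed treatments did not keep this order elsewhere in the study. In florets at 22 °C the set's mean log2 level differed between EBR and DMSO by 0.24 at 8 h, by -3.13 at 16 h and by 0.14 at 24 h, whereas at 0 h the difference was 2.86 in kept pots and 2.99 in pots to be moved. In heated florets it was -1.28 at 8 h, -4.20 at 16 h and 3.82 at 24 h. Set levels sorted by a number from 1 to 16 that the library names carry, with 1 number for each combination of seed treatment, pot set and time. Florets with the numbers 10 to 16 stood between 4.65 and 7.72 around a median of 6.77 (27 libraries), and those with 1 to 9 between 2.38 and 5.90 around a median of 3.14 (34 libraries). The ranges overlapped in a few libraries, and the 34 include the left-out florets, to which the 2.38 belongs. This division was made after the values were seen and carries no test.

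At 0 h both EBR groups had high numbers (10 and 12) and both DMSO groups low ones (1 and 7). Seed treatment and this number therefore cannot be told apart at 0 h, for the set and for every other gene called or named here. What the number stands for is not given in the labels. In the 4 left-out libraries, which are of doubtful tissue, the set stood at 2.45 and 2.38 in those labelled floret and at 6.19 and 2.86 in those labelled rachis.

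**Figure D2:**
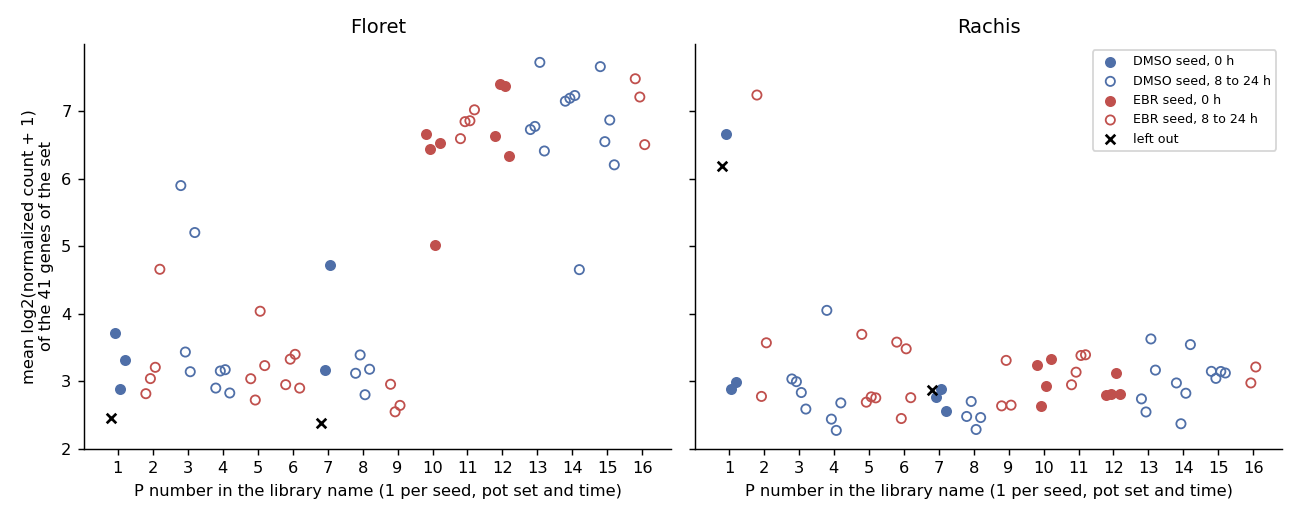
Mean log2(normalized count + 1) of the 41 genes of the co-varying set (vertical axis) in each library, against the number from 1 to 16 in the library name (horizontal axis), floret on the left and rachis on the right. Filled points are 0 h libraries and open points later ones, red for EBR and blue for DMSO seed, and crosses are left out. Florets numbered 10 to 16 lie between 4.65 and 7.72 with either seed treatment, and most rachises below 4.

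Rachises gave little of the set. At 0 h EBR rachises stood between 2.63 and 3.33 and DMSO rachises between 2.56 and 6.66, and the 6.66 was the same DMSO rachis that stood out for TraesCS1A03G0002800.1. Its set level and its 254 counts of that gene lay within the range of the EBR florets. The floret of the same plant stood at 3.71, with 21.0 counts of the gene. A later rachis, replicate 1 of EBR at 16 h and 22 °C, stood at 7.24, with a tissue score of -1.53 and its floret at 2.81. Whether either rachis held floret tissue was not tested. Of the 29 called set genes that could be tested in the rachis, 1 had the floret's sign, and their median there was -0.50. The DMSO rachis at 6.66 enters these values. By pot set, the set's mean log2 level in rachises differed between EBR and DMSO by -1.14 in kept pots, which hold that rachis. In pots to be moved the difference was 0.15. Of the 41 genes of the set, 10 had a correlation above 0.8 with the same gene in later rachises too.

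Outside the set, the genes with the largest differences among those with a mean of at least 50, no overlap and the same sign in both pot sets were TraesCS3A03G0757200.1 and TraesCS3D03G1175000.1 on the higher side. The lower side gave TraesCS5A03G0769500.1 and TraesCS3B03G0491300.1. In all, 6 higher and 2 lower genes met these conditions, so the lack of overlap in florets and the shared sign follow from the choice.

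TraesCS3A03G0757200.1 ran in EBR florets from 73.2 over a median of 86.0 to 114 normalized counts. In DMSO florets it was 9.55, 46.3, 46.7, 47.9 and 48.2. The 9.55 belonged to a single library, replicate 3 of the pots to be moved, and the other 4 lay within a few counts of each other. The log2 fold change was 1.34 (SE 0.305, adjusted p = 4.1e-02 by limma), and without that library it was 0.90 (adjusted p = 3.8e-01 by limma). In rachises it was lower with EBR without being called, at -0.30 (SE 0.272, adjusted p = 1.0e+00 by limma), and EBR (33.3 to 69.8) and DMSO (43.7 to 114) overlapped.

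TraesCS3D03G1175000.1 ran in EBR florets from 123 over a median of 149 to 239 normalized counts. In DMSO florets it was 53.8, 76.4, 77.3, 91.4 and 120. The highest DMSO floret came close to the lowest EBR floret, and both pot sets had higher EBR values, by 0.87 (SE 0.241) in kept pots and 0.97 (SE 0.273) in pots to be moved. Pooled, the log2 fold change was 0.96 (SE 0.189, adjusted p = 5.0e-03 by limma). The call was lost without replicate 2 of the kept DMSO pots, at 0.82 (adjusted p = 7.1e-02 by limma), and when only the compared groups were fitted (adjusted p = 6.5e-02 by limma). In the rachis the fold change was 0.68 (SE 0.234, adjusted p = 1.0e+00 by limma), with EBR between 114 and 193 and DMSO between 51.1 and 168. There the 3 DMSO rachises of kept pots (51.1, 59.5 and 63.9) lay below every EBR rachis, while those of the pots to be moved (107, 145 and 168) reached into the EBR range.

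TraesCS5A03G0769500.1 ran in EBR florets from 386 over a median of 427 to 451 normalized counts. In DMSO florets it was 485, 548, 570, 631 and 659. The groups did not overlap, and the log2 fold change was -0.45 (SE 0.0947, adjusted p = 1.7e-02 by limma). The call was lost without replicate 2 or replicate 3 of the kept DMSO pots, at -0.40 and -0.41 (adjusted p = 1.0e-01 by limma for both), and without the co-varying set (adjusted p = 6.2e-02 by limma). In rachises it was -0.39 (SE 0.114, adjusted p = 1.0e+00 by limma), with EBR between 300.1 and 503.5 and DMSO between 441 and 726. Mean levels were higher in kept pots than in pots to be moved with both seed treatments and in both tissues.

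TraesCS3B03G0491300.1 had the smallest difference of the named genes, with EBR florets from 385 over a median of 413 to 467 normalized counts. DMSO florets held 483, 487, 513, 527 and 533. The gap between the groups was narrow but every library kept to its side, with a log2 fold change of -0.28 (limma, SE 0.0593, adjusted p = 1.5e-02). The call was lost in 5 of 25 settings, among them without replicate 2 or replicate 3 of the kept DMSO pots (-0.27 for both, adjusted p = 6.4e-02 and 9.0e-02 by limma). In the rachis the groups overlapped (396 to 511 with EBR, 419 to 485 with DMSO), at a log2 fold change of -0.048 (limma, SE 0.0672, adjusted p = 1.0e+00).

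**Figure D3:**
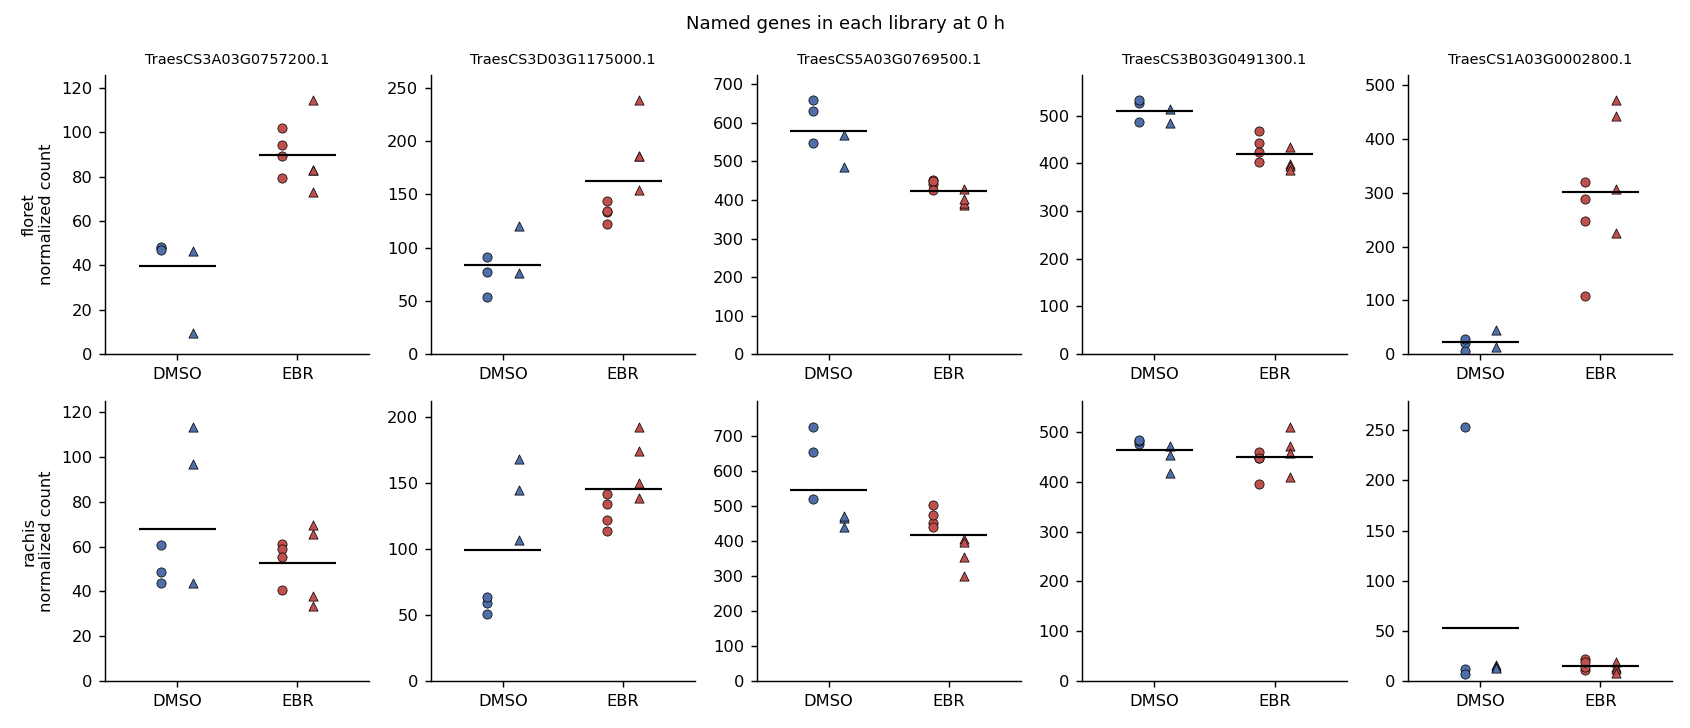
Normalized counts (vertical axes, starting at 0) of the 5 named genes in each library at 0 h, floret above and rachis below, by seed treatment. Circles are kept pots, triangles pots to be moved, and bars the mean of the group. No EBR floret overlaps a DMSO floret in any of the 5 genes, which was a condition for naming those outside the set. In the rachis the groups overlap in all 5.

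These calls rested on few DMSO libraries. When each of the 13 florets was left out in turn, 39 of the 60 genes were called in every run: 35 of the 36 set genes and 4 of the 24 others. The count ran from 49 to 108, the 108 without replicate 4 of the kept DMSO pots, whose tissue score of 0.21 was the lowest of the florets kept. With both left-out plants kept in, it was 144. When the 41 set genes were taken out of the table before the adjustment, 7 of the 24 other genes stayed called.

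The 2 pot sets used different plants and gave a check within the floret. In kept pots 39 genes were called (0.102%), 33 higher (0.0864%) and 6 lower (0.0157%) with EBR. Of the 39, 33 had the same sign in pots to be moved and 28 also an unadjusted p under 0.05 there. The 25 set genes among the 39 made up most of those 28, since 3 of the 14 genes outside the set met both conditions. In pots to be moved 96 genes were called (0.251%), 95 higher (0.249%) and 1 lower (0.00262%) with EBR. Of their 70 genes outside the set, 61 had the same sign in kept pots and 8 an unadjusted p under 0.05 with it. Across all genes tested 46.3% had the same sign in both.

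These 2 counts hung on single libraries. Without replicate 3 of the DMSO kept pots the count in kept pots was 1, and it fell to between 22 and 24 without replicate 1, 2 or 4 of EBR. In pots to be moved it was 0 without replicate 3 of EBR, 17 without replicate 3 of DMSO, and 27 and 38 without replicates 2 and 4 of EBR. The difference between the pot sets' EBR effects was called for 0 of 38183 floret genes by limma and 0 by edgeR (0%), with 3060 and 3126 genes at an unadjusted p under 0.05. In the rachis 5 genes were called in kept pots (0.0129%), 4 higher (0.0103%) and 1 lower (0.00258%) with EBR, and 0 in pots to be moved (limma 0 with 1799 at an unadjusted p under 0.05, edgeR 0 with 1718). For 2 rachis genes (0.00516%) the pot sets differed: TraesCS1D03G0602900.1, by 3.03 (SE 0.448, adjusted p = 8.3e-04 by limma), and TraesCS3A03G1172400.1, by -3.02 (SE 0.555, adjusted p = 4.1e-02 by limma). Both were chosen after their values were seen. The 5 calls became 0 without any 1 of EBR replicates 1, 3 and 4 of kept pots or replicate 4 of either DMSO pot set. The 2 became 1 without any 1 of 8 rachises, which were EBR replicates 1, 2 and 3 of kept pots and 3 of pots to be moved, and DMSO replicates 2 and 4 of kept pots and 3 and 4 of pots to be moved.

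Whether the EBR difference was the same in floret and rachis was tested in a joint fit. The EBR effect differed between floret and rachis for 34 of 40573 genes (0.0838%), and in all 34 it was more positive in the floret. Of these, 31 belonged to the co-varying set and 30 were called in the floret, while 3 were neither. The DMSO rachis with a set level of 6.66 (kept pots, replicate 2) enters this test, and without it 24 genes were called. The count was 14 when only the 0 h libraries were fitted and 17 under a mean of at least 50. With the set taken out of the table, limma made 0 calls, while 1674 genes had an unadjusted p under 0.05; with the set in, edgeR called 35 genes. No named gene outside the set was among the 34: TraesCS3A03G0757200.1, with the largest difference of the 4, gave 1.63 (SE 0.412, adjusted p = 1.4e-01 by limma).

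The genes outside the set had mostly the same sign in the rachis. Of the 21 that were tested there, 15 had the floret's sign, 9 of them at an unadjusted p under 0.05, and the median was 0.14. Over all genes tested in both tissues, 19159 of 36866 had the same sign, and floret and rachis of a plant come from the same head. The smallest adjusted p in the rachis belonged to a pair of these genes, named after their values were seen. TraesCS5D03G0626700.1 ran from 136 to 232 normalized counts in EBR florets and from 84.5 to 110 in DMSO florets, a log2 fold change of 0.81 (limma, SE 0.111, adjusted p = 5.5e-06). In the rachis EBR libraries ran from 108 to 188 and DMSO libraries from 76.9 to 123, with some overlap, a log2 fold change of 0.65 (limma, SE 0.129, adjusted p = 1.3e-01). TraesCS4B03G0788300.1 gave 0.63 in the floret (SE 0.134, adjusted p = 1.8e-02 by limma) and 0.65 in the rachis (SE 0.128, adjusted p = 1.3e-01 by limma), and it was also 1 of the 5 genes called in the kept rachises.

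Later heads that were never heated came from other plants of the same seed treatments. As a mean over 8, 16 and 24 h at 22 °C, EBR and DMSO florets differed in 307 genes, which is 0.804%, with 135 higher (0.354%) and 172 lower (0.45%) with EBR. Just 1 gene was called at 0 h and later, 1.67% of the former and 0.326% of the latter, and its sign was opposite. Of the 36 set genes 0 had the sign of 0 h later, with a median of -0.98. The set's mean log2 level differed by 0.24 at 8 h, -3.13 at 16 h and 0.14 at 24 h. The later sign was thus that of 16 h, where EBR had a low number (2) and DMSO a high one (14). Of the 24 others 10 had the sign of 0 h later, with a median of 0.038. This overlap and these signs were counted with all later libraries in, among them a plant of doubtful tissue described next.

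The count of later florets depended on whether 1 plant was kept in, replicate 3 of EBR at 16 h and 22 °C. Its libraries also lay on the side of the other tissue (floret score -4.03, rachis 1.93). Without it 2582 genes were called later, while at 0 h the count was 74. The overlap with 0 h and the signs were not counted without this plant. The later count was also 0 by limma when only these groups were fitted, with 6329 genes at an unadjusted p under 0.05, and 387 by edgeR. In later rachises 1 gene was called (0.00258%), TraesCS3B03G1122300.1, with a log2 fold change of -0.95 (limma, SE 0.145, adjusted p = 1.6e-03). It is named because the count is 1.

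The EBR effect at 0 h was tested against its mean at the later times. It differed in 68 floret genes (0.178%), 56 with a more positive (0.147%) and 12 with a more negative effect (0.0314%) at 0 h, and 37 of the 68 were set genes. The 49 of them that were called at 0 h comprised 36 set genes and 13 others. For the set the later mean takes its sign from 16 h, where EBR had the number 2 and DMSO 14. This difference and that of the numbers cannot be told apart. TraesCS3D03G1175000.1 was among the 68, with a difference of 1.24 (SE 0.234, adjusted p = 2.7e-03 by limma) and a later effect of -0.27 (SE 0.139). TraesCS5A03G0769500.1 was too, at -0.54 (SE 0.118, adjusted p = 1.8e-02 by limma), with a later effect of 0.10 (SE 0.0697). In the rachis the test called 0 genes by limma (0%) and 0 by edgeR, with 4019 and 4049 at an unadjusted p under 0.05.

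**Figure D4:**
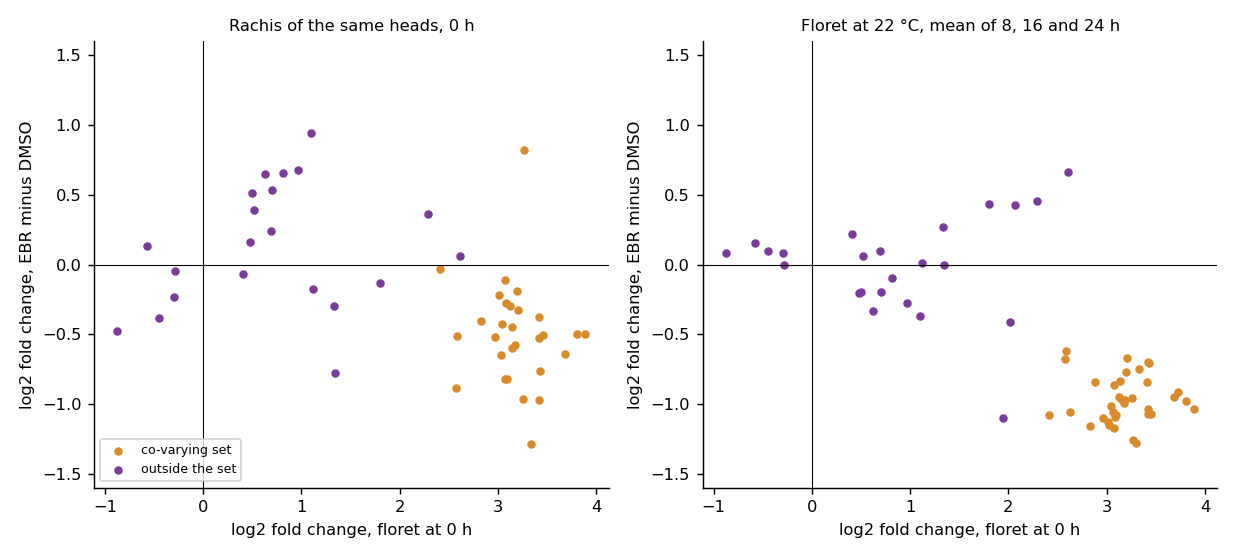
Log2 fold change of EBR against DMSO seed in the rachis of the same heads (left, 50 of the 60 genes were tested there) and in later florets at 22 °C (right), against that in the floret at 0 h (horizontal axes), for the genes called in the floret at 0 h. Set genes (orange) lie at 2.41 to 3.89 on the horizontal axis and mostly below 0 on both vertical axes, with a median of -0.50 in the rachis and -0.98 later. The rachis values include the DMSO rachis with a set level of 6.66, and the later values the plant of doubtful tissue at 16 h. The later sign of the set is that of 16 h. The genes outside the set (purple) fall on both sides.

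Many of the genes outside the set also differed between the hours of sampling. At 22 °C, 13962 of 38183 floret genes (36.6%) differed between 8, 16 and 24 h by limma, and 19 of the 24 genes were among them. The 24 spanned a median of 1.13 on the log2 scale over these times, against 0.34 for all genes, and 15 of them spanned 2-fold or more, against 14.3% of all. TraesCS3D03G1175000.1 spanned 3.37 (adjusted p = 9.8e-22 by limma) and TraesCS5A03G0769500.1 1.82 (adjusted p = 6.1e-24 by limma). TraesCS1A03G0002800.1, which defines the set, spanned 4.39 (adjusted p = 3.4e-10 by limma). The number in the library names changed between these hours too. Both groups at 8 h had high numbers (15 and 16) and both at 24 h low ones (8 and 5). At 16 h DMSO had 14 and EBR 2. Hour and number therefore cannot be told apart between 8 and 24 h.

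The 0 h libraries were compared on a level built from genes outside the set that differed between these hours. It is the mean of those lowest at 16 h minus that of those highest at 16 h. In the floret it ran from -2.28 to -1.12 with EBR and from -2.51 to -0.17 with DMSO. The groups overlapped, with a difference of -0.12 (exact permutation test, two-sided, p = 0.792). The -0.17 was replicate 3 of the kept DMSO pots, and the other 4 DMSO florets lay between -2.51 and -1.88. Without it the difference turned to 0.28 (exact permutation test, two-sided, p = 0.224). The pot sets also had opposite signs, at -0.39 in kept pots and 0.21 in pots to be moved. In the rachis the difference was 0.15 (exact permutation test, two-sided, p = 0.441), at -0.13 in kept pots and 0.42 in pots to be moved. Without the rachis of the same DMSO plant it was 0.31 (exact permutation test, two-sided, p = 0.0381). The genes of this level spanned 2-fold or more and were chosen with the plant of doubtful tissue at 16 h in. The left-out floret of pots to be moved stood at -3.55. Within DMSO florets at 8 h and 22 °C the SD was 0.72. Of the 205 floret genes lowest at 16 h, 6 were called at 0 h, all higher with EBR. Of the 862 highest at 16 h, 6 were called, 5 higher and 1 lower. Of the 3052 in between at 16 h, 2 were called, both higher. These counts leave out the set. Of all 38183 floret genes tested, 60 were called (0.157%), 24 of them outside the set. This level therefore cannot decide whether the hour of sampling had a part in the calls at 0 h, which was not tested further.

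Like heads also varied along a shared axis, the first principal component of deviations from group means in later libraries, which held 30.3% of these deviations in the floret and 34.0% in the rachis. On it EBR florets at 0 h scored -0.25 ± 0.325 (SD, n = 8) and DMSO florets -0.47 ± 0.548 (SD, n = 5), a difference of 0.22 (exact permutation test, two-sided, p = 0.405). EBR rachises scored -0.32 ± 0.300 (SD, n = 8) and DMSO rachises -0.26 ± 0.494 (SD, n = 6), a difference of -0.051 (exact permutation test, two-sided, p = 0.811). Neither difference exceeded the spread within the groups.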

How the data were processed

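Per gene and library, the authors deposited 1 signal value, called a normalized count. Software named in the submitters' processing notes is DESeq2, featureCounts, STAR, Trimmomatic 0.36, MultiQC and FastQC, with no roles. For the genome build, the sources used here give none. In every library 100% of the values were whole reads times a single factor, within 0.01. Of 55578 entries 1 was incomplete and 55577 (53798 gene IDs, chromosomes 1 to 4 and part of 5) were used. Other chromosomes were not analysed here, and 0 IDs matched the 155467 entries of the name table.

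The normalized counts, plus a pseudocount of 1, were put on the log2 scale and fitted with limma 3.58.1 (R 4.3.3), with a variance trend and a single spread per tissue. Fits kept genes that reached 10 in 3 or more libraries. Tests were two-sided, with Benjamini-Hochberg adjustment over all genes kept in the fit, and "called" means an adjusted p under 0.05. The named genes are, outside the co-varying set, the 2 highest and 2 lowest fold changes among called floret genes with a mean of at least 50, no overlap and 1 sign in both pot sets, plus the gene that defines the set. The members, gene set, tests and rules were chosen with earlier results of these data known. The pot set comparisons by themselves, the fits without the set and without the plant at 16 h, and the comparisons of the hour of sampling were added after the data had been seen. edgeR 4.0.16 quasi-likelihood tests on the recovered whole reads, other pseudocounts, filters, scalings and libraries were alternatives. Fits were tested on simulated counts drawn independently for each gene, with 200 genes changed at 0 h. Of the 2-fold changes, 88% were recovered in the floret and 83% in the rachis, with 12 and 11 false calls. Variation shared between genes was not simulated, so false calls from it were not measured.

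Floret and rachis of a plant deviated together from their group means (mean correlation 0.26 over 13 plants, over 0.1 in 11), as they come from 1 head, so the plant was the block in an alternative of the joint fit. No 2 libraries of a group agreed within sampling noise, the lowest chi-square per gene being 4.19 over 34 pairs.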

Additional observations from a re-analysis of the deposited data

Results flagged for a closer look

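Single libraries stood far from the rest of their group in 5 of 40 groups of 0 h values examined. The cutoffs used give about 1 in 20 by chance for independent, normally distributed values. These groups share libraries and include counts not on a log scale, so no excess over chance was measured. Among EBR florets the co-varying set's level was lowest at 5.02, in replicate 3 of kept pots, with the next at 6.34. Among DMSO rachises it was highest at 6.66, in replicate 2 of kept pots, with the next at 2.99. The same rachis held 254 normalized counts of TraesCS1A03G0002800.1, with the next at 15.6. For TraesCS3A03G0757200.1 a DMSO floret held 9.55 normalized counts, with the next lowest at 46.3. On the level of genes that differed between the hours of sampling, a DMSO floret (kept pots, replicate 3) was highest at -0.17. The next was at -1.88.

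Effects differed between groups by a test of the difference itself in 3 comparisons (limma, adjusted p under 0.05). The EBR effect in florets differed between 0 h and later times at 22 °C in 68 genes. Between the pot sets at 0 h it differed in 2 rachis genes. Between floret and rachis at 0 h it differed in 34 genes.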

How the results depend on the processing

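At 0 h the floret count of 60 lay between 40 and 85 under 10 of 12 settings, and it was 144 with both left-out plants kept in and 7 without the co-varying set. edgeR gave 56 genes, 44 higher and 12 lower against 55 and 5, and 48 of them were among the 60. Of the 36 set genes 34 or more stayed called under the settings tried that keep the set, except 23 under a mean of at least 50, which leaves fewer genes to test; of the 24 others 4 did when only the compared groups were fitted and 13 by edgeR. Leaving out single libraries gave 49 to 108. The rachis count of 0 became 2 with both left-out plants kept in, 2 as a mean of the pot sets and 1 with the replicate block, and 1 without EBR replicate 1 of kept pots or DMSO replicate 3 of pots to be moved (0 to 1 without single libraries).

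With both left-out plants kept in, the later floret count was 155, 115 floret and 5 rachis genes differed between 0 h and later times, the pot set difference in the rachis 0, the tissue difference 65, kept pots gave 63 floret genes and 1 rachis gene, and florets to be moved 173. When only the compared groups were fitted, the later counts were 0 for florets and 0 for rachises, kept pots gave 69 and 11, the pot set difference in the rachis 12 and the tissue difference 14. Without the filter the later counts were 71 for florets and 10 for rachises, kept rachises gave 0 and rachises to be moved 5. Under a mean of at least 50 the later rachis count was 0, kept rachises gave 2, their pot set difference 0 and the tissue difference 17. edgeR gave 11 genes in florets to be moved, 0 in kept rachises and 1 for the pot set difference in the rachis, and a pseudocount of 5 gave 0 and 1 for the last pair. As a mean of the pot sets, 1 rachis gene differed between 0 h and later. Without the co-varying set 17 floret genes differed between 0 h and later, kept florets gave 10, florets to be moved 42 and the tissue difference 0. Without the plant at 16 h the later floret count was 2582 and the pot set difference in the rachis 1, and kept rachises gave 6. Without single libraries, the later floret count was 242 to 451, the difference of 0 h from later florets 54 to 84, the pot set difference 0 to 4 for florets (4 without DMSO replicate 2 of pots to be moved) and 1 to 3 for rachises, kept pots 1 to 53 for florets and 0 to 4 for rachises, florets to be moved 0 to 117 and the tissue difference 24 to 35. The causes were not tested.

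Between libraries with the same replicate number, deviations from the group means had a mean correlation of 0.00299 over 16 floret pairs (over 0.1 in 6) and 0.081 over 19 rachis pairs (over 0.1 in 11, against a mean of -0.0285 for other rachis pairs). As not every pair passed 0.1 and the labels tie the numbers to nothing shared, they were not taken to pair the samples. With the replicate block 69 floret genes were called at 0 h, 713 later, 1 in rachises at 0 h, 1 for the rachis pot set difference, 0 in kept rachises and 1 in rachises to be moved; other counts stayed within 1.5 times. The axis score of the rachis at 0 h, EBR minus DMSO, changed sign, to 0.0157 with both left-out plants kept in, and lay between -0.176 and 0.0719 without single libraries. TraesCS3B03G0491300.1 in later florets changed sign to 0.00949 with TMM factors, and TraesCS1A03G0002800.1 in the rachis to 0.22 without the DMSO rachis that stands apart (-0.78 to 0.22 without single libraries). TraesCS3A03G0757200.1 lost its call in 12 of 25 settings, TraesCS3D03G1175000.1 in 2, TraesCS5A03G0769500.1 in 3, TraesCS3B03G0491300.1 in 5 and TraesCS1A03G0002800.1 in 0 of 24. On the level of genes that differed between the hours of sampling, EBR minus DMSO lay between -0.31 and 0.28 in florets without single libraries. In rachises it lay between 0.0669 and 0.31. Depth and the number of heads limit the rest to what the intervals show, which were within 2-fold for 77.1% of floret and 75.8% of rachis genes.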
